A study of Bos taurus with 4 samples.

Results

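Fibro-adipogenic progenitor nuclei of intramuscular fat were chosen from 1 single-nucleus library of cattle by their counts. A barcode was taken when it had at least 200 detected genes and a UMI (1 counted RNA molecule) in at least 2 of PDGFRA, LUM, COL1A1, COL1A2, COL6A3, FBN1, MFAP5, LAMA2 and VCAN, with PDGFRA, COL6A3, FBN1 or LUM among them. It also had to hold 0 UMIs of the endothelial genes PECAM1 and CDH5, the macrophage genes CSF1R and MRC1, and the adipocyte genes PLIN4 and TRARG1. The rule gave 324 of the 1774 kept nuclei of that library, a share of 18.3% (exact Clopper-Pearson 95% interval 16.5 to 20.1), out of 8837 kept nuclei in the series. These are called progenitor-rule nuclei here, and the other 1450 kept nuclei of the library are the other nuclei.

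Fibro-adipogenic progenitors are mesenchymal cells that lie between muscle fibres and in fat. They make collagens and the glycoproteins that organise them, and they can turn into adipocytes or into matrix-laying fibroblasts. In beef animals they are regarded as a source of the adipocytes of marbling fat. PDGFRA, a growth factor receptor, is the surface marker by which they are usually recognised.

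The study took intramuscular fat and subcutaneous back fat from 2 cattle under ordinary commercial feedlot management, with no treatment, and the labels give their age, diet and breed as unknown. Each animal gave 1 library per depot, so there were 4 libraries. The same rule found 189 of 874 kept nuclei (21.6%, 18.9 to 24.5) in the subcutaneous library of animal 1 and 204 of 6126 (3.33%, 2.90 to 3.81) in that of animal 2. Intramuscular fat of animal 2 gave 2 of 63 (3.17%, 0.387 to 11). The intramuscular nuclei therefore come from 1 animal, and depot and library cannot be told apart. Between 0 and 2 kept barcodes were shared by any pair of libraries, and no progenitor-rule barcode was shared. The subcutaneous libraries hold RNA of muscle fibres: a list of 18 muscle fibre genes took 5.18% and 14.3% of the UMIs of their progenitor-rule nuclei, against 0.00986% in the intramuscular ones. Muscle RNA is thus found in the libraries labelled as back fat and almost none in this library labelled as intramuscular fat. Whether dissection or the labels account for this was not tested, and depot means the labelled depot throughout.

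The 324 nuclei held 273881 UMIs, with a median of 724 UMIs and 546 genes per nucleus, against 1304.5 UMIs and 865.5 genes in the other nuclei. Their mitochondrially encoded genes took 2.11% of UMIs, against 1.23% in the other nuclei, and the part of this and of depth in the values was not tested. Most nuclei rested on few markers. The minimum of 2 markers was met exactly by 98 nuclei, 88 had 3, 60 had 4 and 78 had more: 48 with 5, 19 with 6, 8 with 7, 2 with 8 and 1 with 9. FBN1, the core protein of elastic microfibrils, had a UMI in 67.0% of the nuclei. COL1A1 and COL1A2, the chains of type I collagen, were found in 57.4% and 57.1%. COL6A3 of the collagen VI network was found in 36.7%, PDGFRA in 30.9%, the proteoglycan gene VCAN in 29.6%, LUM in 27.2%, the microfibril gene MFAP5 in 24.7% and the laminin gene LAMA2 in 19.8%. These values chose the nuclei and are given as a description.

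Just outside the rule lay 45 nuclei with 1 core marker and no excluded gene, and 475 nuclei that met the markers but held a UMI of an excluded gene. Decorin (DCN), a small collagen-binding proteoglycan outside the rule, stood at 2676 CPM (UMIs of a gene per 1000000 UMIs of the summed nuclei) in the progenitor-rule nuclei. It stood at 1458 in the members with 2 markers, 3145 in those with more and 759 in the 45 nuclei with 1 marker. In the 155 nuclei turned away for a single UMI of an excluded gene it stood at 2310, and in the 320 with more such UMIs at 682. The DCN level of the nuclei lost for a single UMI was thus closer to that of the members than to that of the rest. Gelsolin (GSN) had the same order, at 1482 CPM in members, 1347 with a single such UMI and 478 with more. COL3A1 did not, at 5104, 5223 and 6054. When no gene was excluded the share of the library was 45.0%.

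The label was checked against markers that the rule did not use. DCN had a UMI in 73.1% of the progenitor-rule nuclei, 51.5% of the adipocyte-rule nuclei and 42.4% of the endothelial-rule nuclei. Adipocyte-rule nuclei (808) had a UMI in at least 2 of PLIN1, PLIN4, TRARG1, LIPE, ADIPOQ and CIDEC, one of them PLIN4 or TRARG1. Endothelial-rule nuclei (85) had a UMI in at least 2 of PECAM1, CDH5, VWF, EMCN, ERG and PTPRB, one of them PECAM1 or CDH5. Adipocyte-rule nuclei held no UMI of PECAM1, CDH5, CSF1R and MRC1, but a UMI of PDGFRA or LUM did not exclude them. Endothelial-rule nuclei held no UMI of PDGFRA, LUM, CSF1R, MRC1, PLIN4 and TRARG1. The median depths of adipocyte-rule and endothelial-rule nuclei were 1682.5 and 978 UMIs. Gelsolin (GSN), an actin-severing protein abundant in stromal cells, was found in 53.7% of progenitor-rule nuclei and 56.5% of endothelial-rule nuclei, at 1482 and 753 CPM. PDGFRB, a receptor shared with pericytes, was found in 3.70% and the matrix gene DPT in 5.86%. Both stood higher in the 45 nuclei with 1 marker (94.8 and 253 CPM, on 3 and 8 UMIs) than in the members (51.1 and 76.7). COL3A1, a collagen gene also used as a fibroblast marker, had a UMI in 85.5% of progenitor-rule nuclei. Its CPM ratio to the other nuclei was 0.864, so this marker did not set the members apart.

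RNA of adipocyte genes was present in these nuclei too. PLIN1, a coat protein of the fat droplet, had a UMI in 25.3% of progenitor-rule nuclei, 27.1% of endothelial-rule nuclei and 85.6% of adipocyte-rule nuclei. The 15 adipocyte markers outside the rule, all 15 of them detected, took 0.840% of the UMIs of progenitor-rule nuclei, 0.671% of endothelial-rule nuclei and 1.98% of adipocyte-rule nuclei. Single progenitor-rule nuclei ranged from 0% to 4.56% on that list. FABP4 had a UMI in 97.5% of progenitor-rule and 100% of endothelial-rule nuclei. The PLIN1 share did not exceed that of endothelial-rule nuclei and is not read as expression. FABP4 is also a gene of capillary endothelium, so its share there is no measure of free RNA. How far free RNA enters any other value was not tested. Blood endothelial markers took 0.0511% of the UMIs of progenitor-rule nuclei against 0.695% of endothelial-rule nuclei, macrophage markers 0.0150% against 0.864% in the 10 macrophage-rule nuclei, and pericyte and smooth muscle markers 0.0277%. The satellite cell genes PAX7, MYF5 and MYOD1 and the fast and slow myosin genes MYH1, MYH2 and MYH7 were at 0 UMIs, which allows up to 10.95 CPM.

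Progenitor-rule and other nuclei of the intramuscular library were then compared across all genes outside the rule. The rule set this contrast, so it carries no test. Each ratio of CPM has an exact 95% interval that covers counting error only, and UMIs that gather in a few nuclei make it too narrow. Among 10094 genes with at least 20 UMIs, 130 (1.29%) were at least 4-fold higher in progenitor-rule nuclei and 575 (5.7%) at least 4-fold lower. The interval lay above 1 for 1312 genes (13%) and below 1 for 1155 (11.4%), and the median log2 ratio was -0.03.

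GFPT2 (ENSBTAG00000002215), the enzyme that feeds glucose into hexosamine synthesis, led with 1052 CPM in progenitor-rule nuclei against 201 in the other nuclei, 5.23-fold (4.51 to 6.07). ENPP1, a membrane enzyme that cleaves ATP outside the cell, was at 646 against 127, 5.09-fold (4.21 to 6.15). TNXB, a large glycoprotein that spaces collagen fibrils, was at 1260 against 262, 4.82-fold (4.21 to 5.50). The level of each in progenitor-rule nuclei was above that of adipocyte-rule and endothelial-rule nuclei alike. For TNXB a UMI was seen in 56.2% of progenitor-rule, 21.7% of adipocyte-rule and 9.41% of endothelial-rule nuclei.

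A2M, a broad protease inhibitor, was 4.28-fold higher (3.60 to 5.08), and SEMA4A, a membrane semaphorin, 4.09-fold (3.60 to 4.63). PTGS2, the inducible cyclooxygenase, was 3.95-fold higher (3.42 to 4.56). TGFBR2, the ligand-binding receptor for TGF-beta, was 3.81-fold higher (3.05 to 4.72), and the small proteoglycans OGN and DCN were 3.79-fold and 3.78-fold higher. Leading genes between 3.33-fold and 3.76-fold included APOD, MYOC, CPXM1, ATP13A3, CREB5, SERPING1, MAN1A1, IVNS1ABP, IGFBP6 and SLC43A1. OGN overlaps CENPP and TNXB overlaps CYP21A2 in a RefSeq gene table, so UMIs of either member of a pair can be counted for the other.

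At the low end stood 8 genes with 0 or 1 UMI. CGN and WDR87 had 0 UMIs in progenitor-rule nuclei, against 53.6 and 54.8 CPM in the other nuclei. TDH, VGLL3, ALDH1L1, GYG2, WC-7 and IRS2 had 1 UMI each, so their ratios are imprecise. IRS2, an adaptor of the insulin receptor, was at 3.65 CPM against 55.2, and GYG2, which primes glycogen, at 3.65 against 58.5. All 8 were more abundant in adipocyte-rule nuclei than in progenitor-rule nuclei.

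**Figure D1:**
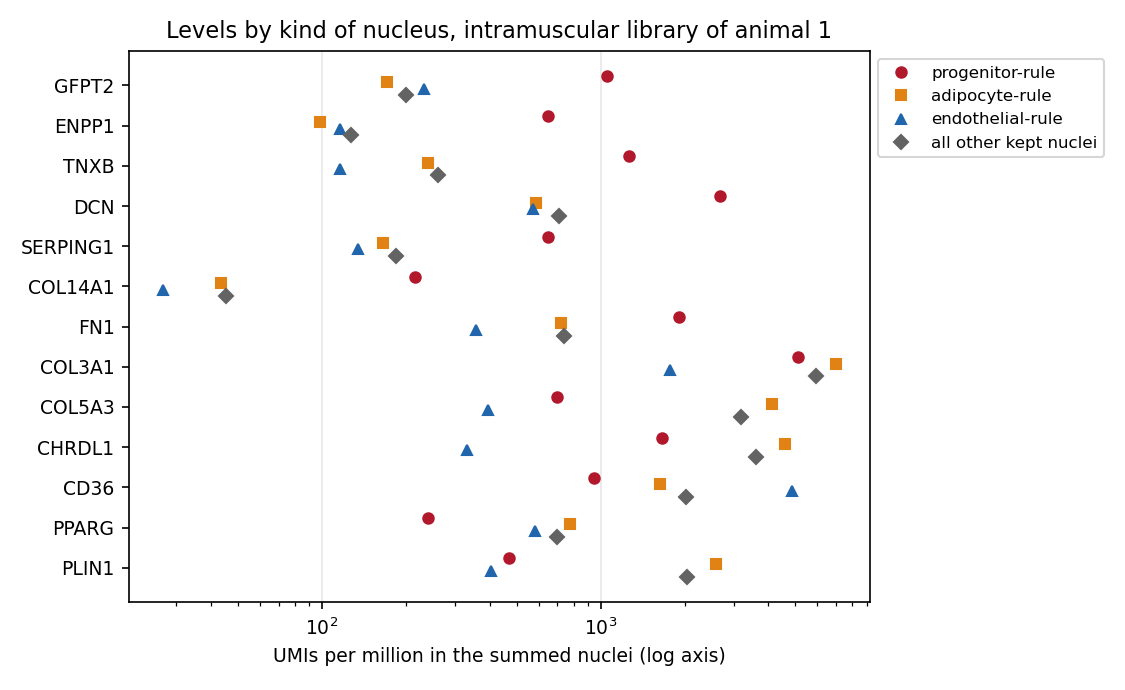
Levels of 13 genes in the summed nuclei of the intramuscular library of animal 1, as CPM on a log axis, for progenitor-rule, adipocyte-rule, endothelial-rule and all other kept nuclei (the last include the adipocyte-rule and endothelial-rule nuclei). GFPT2, ENPP1, TNXB, DCN, SERPING1, COL14A1 and FN1 are highest in progenitor-rule nuclei, whereas COL3A1, COL5A3 and CHRDL1 are highest in adipocyte-rule nuclei.

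Collagens split. COL14A1, a fibril-associated collagen, was at 215 CPM in progenitor-rule nuclei against 45.4 in the other nuclei, 4.74-fold higher (3.40 to 6.56). COL12A1, of the same kind, was 4.39-fold higher (2.74 to 6.90). COL6A1 and COL6A2, partners of COL6A3, were 1.86-fold (1.39 to 2.45) and 1.57-fold (1.26 to 1.93) higher. COL3A1, the chain of type III collagen and a usual fibroblast marker, went the other way: 5104 CPM in progenitor-rule nuclei, 5905 in the other nuclei and 6995 in adipocyte-rule nuclei. COL5A3 was at 697, 3185 and 4131 in the same order, a ratio of 0.219 (0.189 to 0.253) to the other nuclei. COL5A1 (0.935, 0.799 to 1.09) and COL5A2 (1.05, 0.794 to 1.36) had intervals across 1. Over the 11 tested collagens outside the rule, 6 intervals lay above 1 and 3 below, with a median log2 ratio of 0.65.

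Small leucine-rich proteoglycans, which bind and order collagen fibrils, had the highest median of the lists, 1.92 on the log2 scale, and 6 of 7 tested members had intervals above 1. ASPN was 4.35-fold (2.92 to 6.40), PRELP 4.87-fold (2.20 to 10.3) and PODN 2.57-fold higher (1.80 to 3.61). BGN, present at 8 UMIs, was at 0.721 (0.303 to 1.48). Elastic fibre and adhesive glycoproteins had a median of 1.44 and 15 of 21 intervals above 1. Fibronectin (FN1) stood at 1917 CPM against 737 and was 2.60-fold higher (2.36 to 2.87). SPARC, a collagen chaperone, was at 2928 against 2568. The matricellular genes THBS1 (0.352, 0.263 to 0.462) and CCN1 (0.492, 0.431 to 0.560) and elastin, ELN (0.598, 0.437 to 0.802), were lower in progenitor-rule nuclei.

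Among the enzymes that process matrix, PCOLCE, the enhancer of procollagen cleavage, was 3.45-fold higher (2.66 to 4.44) and the gelatinase MMP2 was 3.61-fold higher (2.76 to 4.68). The list had 9 of 24 intervals above 1 and 3 below, with a median of 0.33. TIMP2, a metalloprotease inhibitor, had an interval across 1 (0.905 to 1.39). Basement membrane genes had a median of -0.01: COL4A1 was at 1497 CPM against 2072, and NID1 and LAMA4 had intervals across 1.

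Complement genes, many of which stromal cells secrete, had a median of 1.51, and 9 of 13 intervals lay above 1 with none below. SERPING1, the inhibitor of the first complement protease, was 3.49-fold higher (2.92 to 4.17). The proteases C1R and C1S were 3.87-fold (2.89 to 5.13) and 2.97-fold (2.34 to 3.75) higher. C7, a part of the membrane attack complex, was 3.41-fold higher (2.49 to 4.62), and C4A was 4.003-fold higher (2.61 to 6.04).

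Receptors and ligands were mixed. TGFBR3, the TGF-beta co-receptor, was 3.24-fold higher (2.62 to 3.98) and OSMR, the oncostatin M receptor, 3.40-fold (2.26 to 5.02). GHR, the growth hormone receptor, was lower at 0.632 (0.523 to 0.759). The hedgehog transducer SMO and the effector GLI3 were 4.92-fold (2.95 to 8.02) and 5.83-fold (2.97 to 11.2) higher, on 27 and 17 UMIs. The monocyte attractant CCL2 stood at 2527 CPM against 1059, and VEGFA and CSF1 were lower at 0.451 (0.358 to 0.562) and 0.216 (0.156 to 0.292). The BMP inhibitor CHRDL1 was at 1654 in progenitor-rule, 3616 in other and 4569 in adipocyte-rule nuclei.

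Genes of adipocyte commitment were mixed. PPARG, the master regulator of fat cell formation, was at 241 CPM in progenitor-rule nuclei, 699 in the other nuclei and 775 in adipocyte-rule nuclei, and had a UMI in 13.6% of progenitor-rule, 49.4% of endothelial-rule and 61.8% of adipocyte-rule nuclei. The preadipocyte transcription factor EBF2 was 2.44-fold higher (1.78 to 3.30). DLK1, a surface protein that holds adipogenesis back, was 5.22-fold higher on 38 UMIs and had a UMI in 7.41% of the nuclei, against 1.36% of adipocyte-rule and 4.71% of endothelial-rule nuclei. The list as a whole had a median of -0.50, with 4 of 18 intervals above 1 and 9 below. FAP and SCARA5, surface markers of fibroblastic progenitors, were 2.25-fold (1.79 to 2.81) and 4.58-fold (3.54 to 5.89) higher. PI16, which marks an early, adventitial kind of progenitor in other tissues, had 3 UMIs in 3 of the 324 nuclei.

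The transcripts of immediate early genes were abundant. FOSB was at 4809 CPM against 2284, JUN at 8237 against 6560 and FOS at 1968 against 1367, and 10 of 19 intervals of that list lay above 1 and 7 below, with a median of 0.33. HOX genes had 1 of 18 intervals above 1 and 2 below (median -0.29).

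The same rule was applied to the subcutaneous libraries, where the 15 rule genes were left out. The rule made the groups there too, so genes expressed with a marker, or with an excluded gene, had to differ. The p-values say only how far the split by the rule repeated between the 2 libraries, and they are no independent support for the identity of the nuclei. Summed progenitor-rule and other nuclei of each library were compared with edgeR's quasi-likelihood test, with the library as a block. Of 7711 genes tested, 280 rose (3.63%) and 84 fell (1.09%) in progenitor-rule nuclei at a Benjamini-Hochberg adjusted p under 0.05. Without the library block, which is the only pairing of the summed nuclei, 0 genes passed and 335 had an unadjusted p under 0.05. DESeq2's Wald test called 101 of 15714.

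Of the 20 leading genes of the intramuscular nuclei, 19 were tested and 15 rose. GFPT2 was at 1158 CPM in progenitor-rule against 139 in other nuclei of animal 1 and at 163 against 6.79 in animal 2, a log2 fold change of 3.43 ± 0.44 (SE, edgeR adjusted p = 1.45e-11). ENPP1 was at 727 against 113 and 450 against 34.7 (2.90 ± 0.41, edgeR adjusted p = 1.38e-09). TNXB was at 1338 against 271 and 456 against 37.6 (2.65 ± 0.43, edgeR adjusted p = 2.93e-07). In both animals these 3 genes were higher in the progenitor-rule nuclei. DCN, at 3975 against 713 and 1689 against 173, rose by 2.60 ± 0.52 (edgeR adjusted p = 6.3e-05). The 4 tested genes that did not pass were SEMA4A, PTGS2, APOD and IVNS1ABP.

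**Figure D2:**
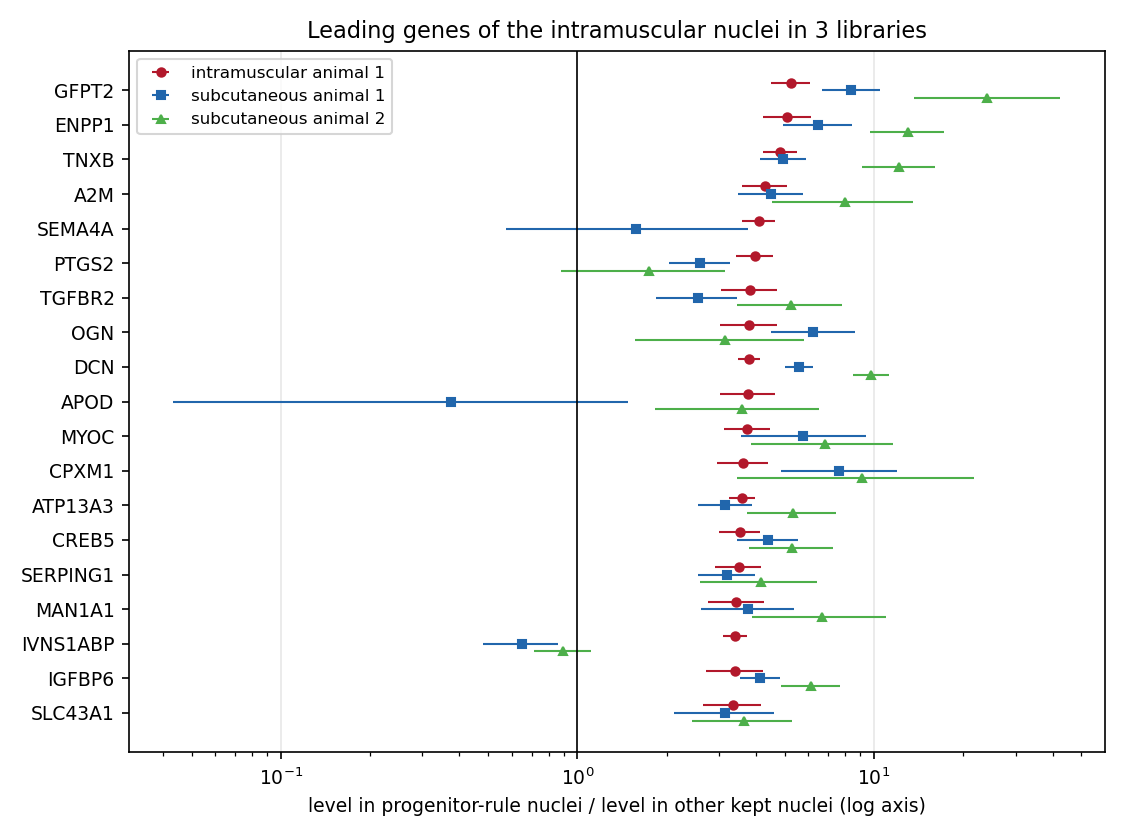
Ratio of the level in progenitor-rule nuclei to that in the other kept nuclei for the 19 leading genes of the intramuscular library that were tested in subcutaneous fat, in that library and in the 2 subcutaneous libraries, on a log axis; bars are exact 95% counting intervals, and SEMA4A in the subcutaneous library of animal 2, with a count of 0 in progenitor-rule nuclei, is not drawn. In both subcutaneous libraries 16 of these genes have a ratio above 1.

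Beyond the leading genes, 51 of the 90 genes that were at least 4-fold higher in the intramuscular nuclei and were tested in the subcutaneous libraries rose there, and 0 fell. Of the 264 subcutaneous genes that rose and were also measured in the intramuscular library, 248 (93.9%) had a ratio above 1 there and 206 an interval above 1. Over all 7376 genes measured in both, 50.5% had a ratio above 1. After GFPT2 and a gene with no name in the files, LPAR1, EFEMP1 and VIT had the smallest subcutaneous p-values, and they were chosen after their values were seen. LPAR1, a receptor for lysophosphatidic acid, rose by 4.18 ± 0.54 on the log2 scale (edgeR adjusted p = 3.77e-11) and was 4.70-fold higher (2.59 to 8.27) on 20 UMIs in the intramuscular nuclei. EFEMP1, a fibulin, rose by 3.01 ± 0.41 (edgeR adjusted p = 6.81e-10), and VIT, a matrix protein, by 3.36 ± 0.47 (edgeR adjusted p = 1.15e-09). Their intramuscular ratios were 3.67 (2.50 to 5.31) and 4.57 (3.09 to 6.67).

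By list, 10 of 14 other progenitor markers rose in the subcutaneous libraries, 12 of 22 elastic fibre and adhesive glycoproteins, 6 of 8 small leucine-rich proteoglycans, 7 of 12 complement genes, 11 of 25 matrix enzymes, 6 of 11 collagens and 6 of 17 TGF-beta and BMP genes, and none of these lists had a member that fell. Their median log2 changes were 1.94, 1.61, 1.97, 1.70, 1.33, 1.69 and 0.93, against -0.08 over all genes tested. C1S rose by 2.43 ± 0.41 and FST, the activin-binding follistatin, by 2.53 ± 0.47 (edgeR adjusted p = 1.04e-06 and 1.38e-05). Of 14 adipocyte genes 5 fell (ACSL1, GPAM, LIPE, PLIN1 and SCD, median -1.55), and of 12 endothelial genes 4 fell (EGFL7, FLT1, ROBO4 and VWF, median -1.73). The rule sets both directions, since it keeps nuclei with a UMI of PLIN4, TRARG1, PECAM1 or CDH5 out of the progenitor-rule group and leaves them among the other nuclei. Preadipocyte genes went both ways: CEBPD, DLK1, EBF1, EBF2, EBF3 and ICAM1 rose, whereas PPARG, CD36, FABP4 and APOE fell. PPARG fell by 3.97 ± 0.69 on the log2 scale (edgeR adjusted p = 1.96e-06). None of 18 muscle fibre genes, 15 HOX genes and 19 immediate early and heat shock genes passed, where 4.72% of all genes tested did.

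**Figure D3:**
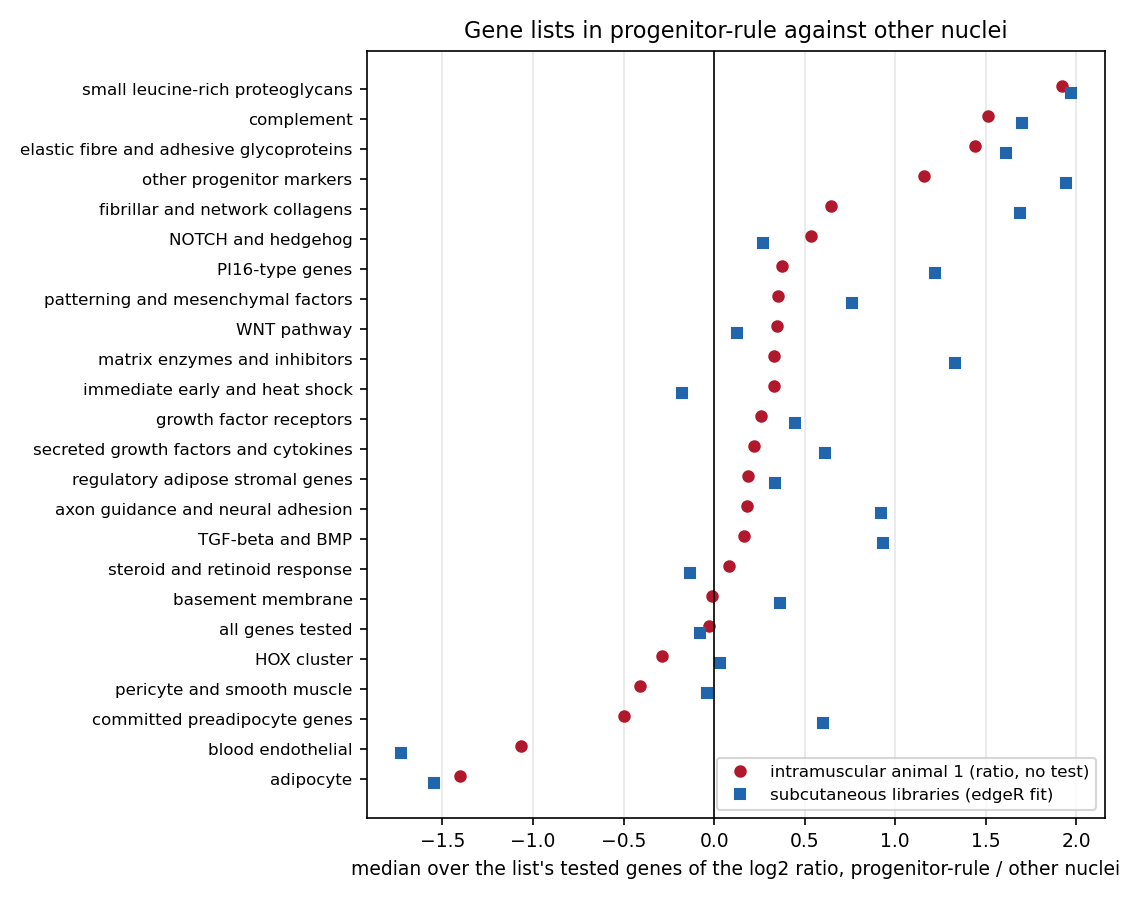
Median over the tested genes of each list of the log2 ratio of progenitor-rule to other nuclei, in the intramuscular library of animal 1 (circles, no test) and in the edgeR fit of the 2 subcutaneous libraries (squares), for lists with at least 5 tested genes in both. Small leucine-rich proteoglycans (1.92 and 1.97) lie at one end, adipocyte (-1.40 and -1.55) and blood endothelial genes (-1.07 and -1.73) lie at the other, and all genes tested lie at -0.03 and -0.08.

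Some list medians were lower in the intramuscular library. Collagens had a median of 0.65 there and 1.69 in the subcutaneous fit, matrix enzymes 0.33 and 1.33, and TGF-beta and BMP genes 0.17 and 0.93. These gaps were not tested. The comparison nuclei differ: 808 of the 1450 other intramuscular nuclei were adipocyte-rule nuclei, while muscle fibre genes took 5.41% and 20.7% of the UMIs of the other subcutaneous nuclei.

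Progenitor-rule nuclei of the depots were then compared with each other, 1 intramuscular against 2 subcutaneous libraries, again with edgeR's quasi-likelihood test. Of 5107 genes, 196 passed at an adjusted p under 0.05 (3.84%), 47 higher (0.92%) and 149 lower (2.92%) in the intramuscular nuclei. None of 11 collagens, 8 small leucine-rich proteoglycans, 12 complement genes and 15 other progenitor markers passed, with median log2 differences of 0.06, -0.47, 0.25 and -0.50 against -0.09 over all genes tested. On simulated data this test recovered 1.6% of 4-fold changes, so these lists are not shown to be alike in the depots. DCN was at 2676 CPM against 3975 and 1689, and ENPP1 at 646 against 727 and 450. COL1A1, which belongs to the rule, was at 1617 against 2345 and 907. The intramuscular value lay between the subcutaneous ones in each of these 3 genes, but outside both for 3445 of the 5107 genes tested. With all 4 libraries and the animal as a block, which pairs the depots of each animal, 0 genes passed (88 had an unadjusted p under 0.05), and without the block 32 passed, 0 of them higher. With the rule at 3 markers, or at 500 genes per nucleus, 0 genes passed (346 and 392 unadjusted). The spread in this test comes from the 2 subcutaneous libraries alone, and the labels do not say whether the libraries were made together.

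SEMA4A was at 1311 CPM against 40.7 and 0 (edgeR adjusted p = 0.00316), and S100G, a calcium-binding protein, at 1698 against 116 and 16.9 (edgeR adjusted p = 0.00639). NFATC2, CYP2B6, GRP and ANPEP had 41 to 56 UMIs against 0 in both subcutaneous groups, and ZFAND2A, a stress-induced zinc finger gene, 144 UMIs against 4 and 0. Each of these genes was also more abundant in the other nuclei of the intramuscular library than in those of both subcutaneous libraries: SEMA4A stood at 321 CPM in the other intramuscular nuclei and at 25.9 and 0.261 in the other subcutaneous nuclei. Of the 47 higher genes, 45 were also higher in the other nuclei of the intramuscular library than in those of both subcutaneous libraries, and 23 were more abundant in the other than in the progenitor-rule nuclei. The shares of all tested genes with these orders are not given, so the counts have no background to be read against. Adipocyte and preadipocyte genes were among the higher genes: PPARG (66 UMIs against 5 and 0), PLIN1, FASN, MLXIPL and APOE. MT2A, a metallothionein, and S100B were higher as well.

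The depot test did not leave out the rule genes, and the PI16 list holds FBN1 and MFAP5, by which the nuclei were chosen. Of 12 tested genes of the PI16 list, PI16 alone was lower, and the list median was -1.25 on the log2 scale. It had 3 UMIs (10.95 CPM) in the intramuscular nuclei against 35 (204) and 17 (95.7), a log2 fold change of -3.84 ± 0.86 (edgeR adjusted p = 0.0117). In the subcutaneous nuclei PI16 rose against the other nuclei by 2.83 ± 0.47 (edgeR adjusted p = 1.02e-06). Neither IGFBP6 nor THY1 passed: IGFBP6 was at 424 CPM against 1647 and 557 (edgeR adjusted p = 0.759) and THY1 at 124 against 733 and 113 (edgeR adjusted p = 0.471). Also lower were SPARCL1 (29.2 against 175 and 259), HMCN2 (0 UMIs against 10 and 15), THBS4 (0 against 17 and 26), SOX6 (3 against 14 and 24) and NCAM1 (3 against 25 and 16).

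Muscle genes were among the lower genes, with 11 of 18 of the muscle fibre list. MYH2, MYH7, MYL1, MYL2, CKM, MYBPC1, MYBPC2 and DES had 0 UMIs in the intramuscular nuclei, and MYH2 stood at 7152 and 7394 CPM in the subcutaneous ones, at least 653-fold lower. Smooth muscle genes were lower too: ACTA2 (2 UMIs against 54 and 72), MYH11 (1 against 94 and 74) and CNN1 (0 against 16 and 28). These genes were more abundant in progenitor-rule than in other nuclei of both subcutaneous libraries. MYH11 was at 547 against 321 CPM in animal 1 and 417 against 188 in animal 2. The rule excludes no smooth muscle gene. Single nuclei there reached 3.96% and 4.68% of UMIs on the pericyte and smooth muscle list, against 0.820% in the intramuscular ones. The part of such nuclei in these differences was not tested. Of the 149 lower genes, 132 were more abundant in the other than in the progenitor-rule nuclei of the subcutaneous library of animal 2, and 87 in both animals. Here too the shares of all tested genes are not given. Muscle fibre RNA moved with the depot in both kinds of nuclei, and its part in the other differences was not tested.

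**Figure D4:**
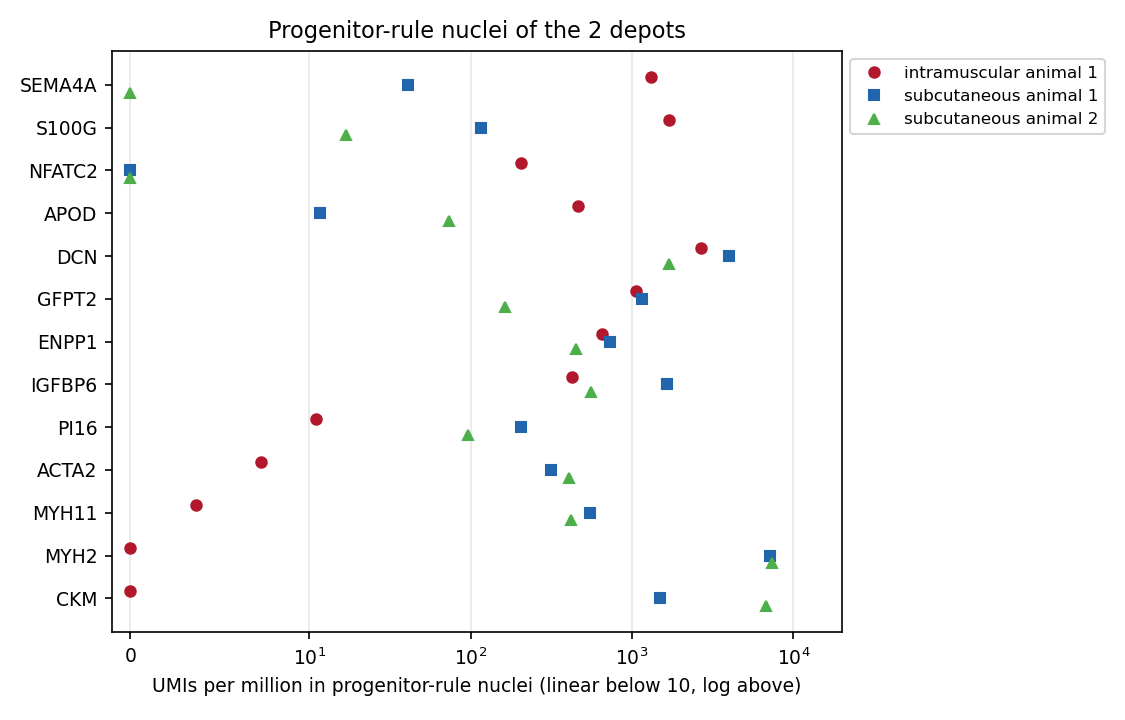
Level of 13 genes in the summed progenitor-rule nuclei of the intramuscular library of animal 1 and the 2 subcutaneous libraries, as CPM (linear below 10, log above). SEMA4A, S100G, NFATC2 and APOD are highest in the intramuscular nuclei, DCN, GFPT2 and ENPP1 lie between the subcutaneous values, and PI16, ACTA2, MYH11, MYH2 and CKM are lowest there.

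The intramuscular progenitor-rule nuclei were not uniform. When all nuclei of the library were clustered, 275 of the 324 (84.9%) fell into 2 of 10 clusters. The first held 216 of them among 424 nuclei and had ADGRD1, VIT and the rule gene COL6A3 among its leading genes. The second held 59 among 132 nuclei and was led by PTX3, PLAU, ASRGL1 and GFPT2. These clusters also held 281 of the other nuclei (19.4% of them), so the comparison group contains nuclei that resemble the members. Measured only against the 1169 other nuclei outside these clusters, the 20 leading genes were 3.90-fold to 8.91-fold higher. In that alternative, chosen after seeing the data, 229 genes were at least 4-fold higher. The 20 genes were themselves chosen in these nuclei, and the share behind the 229 is not given.

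Clustered by themselves, the 324 nuclei formed 3 groups, which are described without a test because the same counts made the groups. Group 1 held 63 nuclei (19.4%). SEMA4A had a UMI in 79.4% of them and in 28.4% of the remaining nuclei, and LMNA, which codes for lamins of the nuclear envelope, in 60.3% against 34.9%. COL3A1 was lowest here, at 2544 CPM against 5369 and 5958 in groups 2 and 3.

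Group 2 held 145 nuclei (44.8%) and was led by PCK1, GPAM, COX14, B3GNT6 and CYP2B6. PCK1 and GPAM serve the making of triglyceride in fat cells. GPAM was at 591 CPM against 63.7 in the remaining nuclei, but in only 11.03% of the nuclei. Adipocyte list genes took 1.09% of the UMIs of group 2, against 0.676% and 0.646% in groups 1 and 3. It had 36 nuclei that lay in clusters other than those 2 of the whole library, against 2 and 11 for the other groups, and DCN had a UMI in 67.6%, 71.4% and 81.0% of groups 2, 1 and 3.

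Group 3 held 116 nuclei (35.8%) and was deepest, with a median of 838 UMIs against 719 and 701. Its leading genes were SLC2A1, PTX3, MT2A, CXCL3, PLAU and GRO1. CXCL3, a chemokine for neutrophils, had a UMI in 71.6% of its nuclei and 12.5% of the remaining ones, with 7402 CPM against 424. PTX3, a soluble pattern recognition protein, was at 1618 against 66.6, 24.3-fold higher (13.2 to 49.6). PLAU, the urokinase gene, was at 1039 against 60.6, the chemokine gene GRO1 at 929 against 60.6 and MT2A at 653 against 30.3. Unlike CXCL3, these genes had UMIs in few nuclei of group 3: PTX3 in 15.5%, PLAU and MT2A in 19.0% each and GRO1 in 18.1%. SLC2A1 had 25 UMIs in 5.17% of them. GFPT2, the leading gene of all 324 nuclei, had a UMI in 48.3% of group 3 and 19.7% of the rest, and CCL2 in 59.5% of group 3, 36.5% of group 1 and 23.4% of group 2. TNXB was found at like shares in all groups (54.0%, 53.8% and 60.3%).

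**Figure D5:**
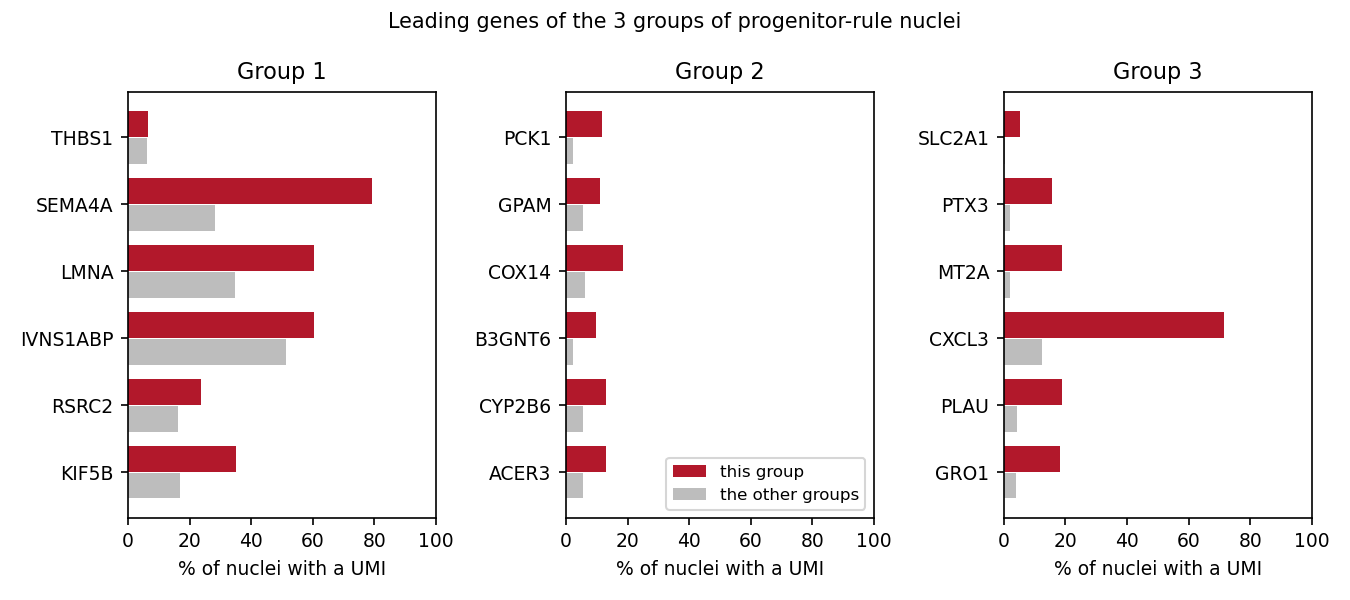
Percent of nuclei with a UMI for 6 of the leading genes of each of the 3 groups of the 324 intramuscular progenitor-rule nuclei, in that group and in the remaining groups. CXCL3 reaches 71.6% in group 3 and SEMA4A 79.4% in group 1, while the leading genes of group 2, and those of group 3 other than CXCL3, stay under 20% of their nuclei.

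PTX3 transcripts were concentrated in few nuclei, 187 UMIs in 6.79% of the 324, and the genes found in the same nuclei were compared with those in the subcutaneous library of animal 1. Of the 22 intramuscular nuclei with a PTX3 UMI, 13 (59.1%, 36.4 to 79.3) also had a CXCL3 UMI, against 31.8% (26.6 to 37.4) of those without. In the subcutaneous library of animal 1, 4 of 11 nuclei with PTX3 (36.4%, 10.9 to 69.2) and 8.99% (5.23 to 14.2) of those without had CXCL3. CXCL3, PLAU and GFPT2 lead group 3 together with PTX3, so their intramuscular co-detection was partly set in advance. PLAU was co-detected in 45.5% against 6.95% of intramuscular nuclei, GFPT2 in 68.2% against 27.2% and CCL2 in 72.7% against 36.4%. For GFPT2 and CCL2 the subcutaneous shares were 72.7% against 27.0% and 54.5% against 15.7%. For PLAU they were 27.3% (6.02 to 61.0) against 8.43% (4.79 to 13.5), with intervals that overlap. TNXB, not a leading gene of group 3, was also found more often with PTX3, in 81.8% against 54.3% and 72.7% against 47.2%. ENPP1 had like shares, 36.4% against 35.4% and 36.4% against 36.0%. The order differed between the libraries for MT2A, HAS2, COL6A3, COL1A1, ADGRD1, VIT and IL6, which so few nuclei with PTX3 cannot settle. MT2A was found in 18.2% (5.19 to 40.3) against 7.28% (4.62 to 10.8) of intramuscular nuclei. In subcutaneous ones it was found in 0 of 11 (0 to 28.5) against 5.06% (2.34 to 9.38). HAS2 was found in 9.09% (1.12 to 29.2) against 11.3% (7.92 to 15.4) and in 27.3% (6.02 to 61.0) against 6.74% (3.53 to 11.5). For both genes the intervals overlap within each library. COL6A3 was found in 18.2% (5.19 to 40.3) against 38.1% (32.6 to 43.8) and in 72.7% (39.0 to 94.0) against 20.2% (14.6 to 26.9). It is a core marker of the rule, so its detection is partly set by the choice of nuclei. COL1A1, a rule marker too, was found in 45.5% against 58.3% and in 90.9% against 63.5%. Nuclei with PTX3 were deeper in both libraries, with medians of 932.5 against 720 and 1082 against 736 UMIs, and the part of depth was not tested. The subcutaneous library of animal 2 had 0 PTX3 UMIs in its progenitor-rule nuclei, so that the call of PTX3 in the subcutaneous comparison (3.50 ± 0.55 on the log2 scale, edgeR adjusted p = 8.42e-08) rests on animal 1.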

How the data were processed

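Nuclear RNA of 4 fat libraries was sequenced with 10x Genomics chemistry. Per the file headers, the authors counted UMIs with Cell Ranger 6.0.1, and the deposited values are raw counts per gene and barcode. Reads were mapped to ARS-UCD1.2, per the submitters' processing notes. Which gene models were used, and whether intronic reads counted, is not given in the sources used here. All deposited barcodes and gene names are labels with no score, and 4251 of 21861 features had no name.

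Nuclei with at least 200 genes and under 10% mitochondrial UMIs were kept, and 4 nuclei of the subcutaneous library of animal 1 that met the rule failed the latter. Kept nuclei held 105481 to 4006966 UMIs per library. Levels are CPM over summed nuclei. Intervals for shares are exact binomial, those for ratios condition on the summed UMIs, at 95%, and a count of 0 was read as allowing 3 counts. UMI counting removes amplification copies, and intervals cover counting error only. Scrublet called 0 doublets in the intramuscular library of animal 1 and so did not work; doublets were kept. Clusters used scanpy 1.11.5 with igraph 0.11.9, 2000 variable genes, 30 components, 15 neighbours and resolution 1.0 (1000, 15, 15 and 0.5 within the 324 nuclei).

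Summed counts were tested with edgeR 4.0.16 (filterByExpr, TMM, quasi-likelihood, Benjamini-Hochberg). The subcutaneous class test had the library as a block. The depot test used libraries with at least 10 progenitor-rule nuclei, so the intramuscular library of animal 2 was left out. Libraries with the same number come from the same animal, per the labels, and the fit with the animal as a block is given with the alternatives. SE was derived from the log2 change and the F statistic. Alternatives were DESeq2 1.42.0, other filters, rules and comparison nuclei, and thinning to 500 UMIs. On simulated data with 8-fold changes the class test recovered 76% and the depot test 27.5% of changed genes, and with 4-fold changes 36.4% and 1.6%.

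The genes named are the 15 rule genes, the 20 with the largest and 8 with the smallest ratio among genes with at least 100 UMIs (for the largest, also a UMI in at least 10% of nuclei), the 3 most abundant of each list, up to 8 depot genes per direction and list members past the depot threshold; other genes were chosen after their values were seen. The members and lists were chosen with earlier results of these data known. Of the lists, T and B cell, mast cell, mesothelial and Schwann cell genes took 0.00365%, 0.00219%, 0.00183% and 0.0201% of the UMIs of the 324 nuclei. RefSeq genes of ARS-UCD2.0 were used only to see overlaps: 126 of 126 named genes matched and 38 overlapped another gene. No coordinates or sequences are given. Some genes that the rule for naming would include are not reported here.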

Additional observations from a re-analysis of the deposited data

Results flagged for a closer look

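In 4 of the named genes the ratio of progenitor-rule to other nuclei lay on one side of 1 in the intramuscular library and on the other in both subcutaneous libraries, with counting intervals apart from 1 in all 3. The difference itself was not tested. COL3A1 had a ratio of 0.864 in the intramuscular library, against 1.31 in subcutaneous fat of animal 1 and 11.4 in that of animal 2. NR3C1, the glucocorticoid receptor, had 0.727 in the intramuscular library. The reverse held for IGFBP3, an insulin-like growth factor carrier, at 2.12, and for the immediate early gene JUN, at 1.26. IGFBP3 fell in the subcutaneous class test by 1.73 ± 0.45 on the log2 scale (edgeR adjusted p = 0.00567), and the remaining genes did not pass there.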

How the results depend on the processing

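In the intramuscular library the 20 leading genes had ratios above 1 in every setting run. These ran from 1.48 (IGFBP6, against endothelial-rule nuclei) to 24.4 (SEMA4A, the same setting). The 20 genes were chosen for the largest ratios in these same nuclei, so ratios above 1 were largely fixed in advance and give no support. Genes at least 4-fold higher numbered 41 after thinning to 500 UMIs, 399 against endothelial-rule nuclei, 241 against adipocyte-rule nuclei and 229 against other nuclei outside the 2 clusters (added after seeing the data). Genes at least 4-fold lower numbered 875 with 3 markers, 307 after thinning and 205 against endothelial-rule nuclei. The number of genes with at least 20 UMIs differs between these settings, so the counts are not shares of one set. The share of 18.3% became 12.7% with 3 markers, 45.0% with no gene excluded and 15.1% at 500 genes.

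The subcutaneous class test gave 364 of 7711 genes. DESeq2's Wald test gave 101 of 15714 (86 higher, 15 lower), and endothelial-rule nuclei as the comparison gave 711 of 3853 (374 lower). The fit with no replicate block gave 0 of 7711 in either direction. With 3 markers, added after seeing the data, 451 of 8003 genes passed, 168 of them lower. PTGS2 turned to -0.64 against endothelial-rule nuclei, where it did not pass.

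The depot test gave 196 genes. All 4 libraries gave 32 (0 higher, 32 lower; 236 with an unadjusted p under 0.05). With the animal as a replicate block in those 4 libraries 0 passed in either direction (88 unadjusted), and 3 markers or 500 genes gave 0 as well. DESeq2's Wald test gave 115 (8 higher) and a minimum of 1 UMI gave 303 (83 higher). The main test covered 5107 genes, all 4 libraries 3660, and DESeq2 or a minimum of 1 UMI 13585, so these counts have different totals. In each setting the genes of the main depot test that had a value kept their direction. They were chosen in the same libraries that the settings reuse, so this was largely fixed in advance and gives no support. Leaving out a subcutaneous library leaves 1 against 1, a value with no test. Without that of animal 1, 25 of 36 named depot values moved by more than 1 SD, and without that of animal 2, 24 of 36, with no change of sign. The genes were chosen past the threshold in the same libraries, so the sign was largely fixed in advance and gives no support. The values are log2 differences of CPM with 5 CPM added, which are smaller than fitted changes for genes at 0. PI16 was at -2.66 without animal 1 and -3.71 without animal 2. The intramuscular library could not be left out. Depth limits single nuclei most: at a median of 724 UMIs a gene with no UMI is not shown to be absent.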
